A study of Mus musculus musculus x Mus musculus castaneus with 8 samples.

Results

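The measurement described here is the allele ratio of autosomal genes, the balance between RNA from the mus and the cas copy of a gene, in fibroblasts with and without 5-aza-2'-deoxycytidine (5azadC). Members were the autosomal genes, on chromosomes 1 to 19, with a mean of 20 or more allele-assigned reads per library, and 8949 of the 24421 genes in the allelic table met that rule. Of all genes at this depth, 9160 in number, the other 211 were X-linked. The rule used read depth and chromosome only, not the ratio.

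The cells, tail fibroblasts, came from a female F1 animal of a cross of Mus musculus musculus (mus) and Mus musculus castaneus (cas), so reads over sequence differences between the parents could be assigned to the mus or the cas copy. The study combined an inhibitor of DNA methylation with an Aurora kinase inhibitor in work on reactivating the silent X chromosome. The 4 libraries with 5azadC were 2 from cells given 5azadC alone and 2 from cells given 5azadC and VX680 (5azadC+VX680). The 4 libraries without it were 2 from untreated cells and 2 from cells given VX680 alone. All groups had the same volume of the solvent DMSO, drugs were added 24 h after plating, and the growth time given is 72 h. The labels name no drug concentration, no direction of the cross and no clone, and do not say that replicates were separate cultures. P-values therefore measure the spread between these libraries, which may be technical. In bulk RNA, fewer cells using an allele and less RNA from that allele per cell cannot be told apart.

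Cytosine methylation at promoters and imprinting control regions holds some genes silent, and for imprinted genes it silences only the copy from one parent. 5azadC is a cytidine analogue that traps DNA methyltransferases, the enzymes that copy this mark at replication, so that methylation is lost as cells divide. VX680 inhibits the Aurora kinases, which control chromosome segregation and cytokinesis. Allele ratios in an F1 hybrid compare 2 copies in the same nuclei, so that a change acting alike on both leaves the ratio as it was.

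Libraries held between 6908503 and 11169532 reads assigned to genes, of which 26.1 to 26.9% were assigned to an allele. Summed CPM, a gene's count scaled to a fixed library total, of 9 fibroblast markers were 11000 to 22200 with 5azadC and 13200 to 35100 without, against at most 4.78 for 5 keratinocyte markers in any library. The endothelial list summed to 174 to 231 CPM with 5azadC and 125 to 193 without, the adipocyte list to 23.9 to 60.3 with and 75.4 to 95.9 without. The leukocyte list summed to 15.8 to 25.6 CPM with and 15.4 to 20.8 without, and the melanocyte list to 26.1 to 43.8 with and 30.3 to 41.2 without, although 1 member of each, Cd3e and Tyr, was at 0 in all libraries. Markers under 1 CPM were 2 of 5 endothelial, 2 of 4 adipocyte, 3 of 5 leukocyte and 2 of 4 melanocyte ones. Each of these sums thus rests on part of its list and does not by itself show that such cells were present. Their presence, and any part in the ratios, was not tested. Members had a median of 107.8 allelic reads per library. The median standard error (SE) of a gene's log2 change in mus:cas ratio was 0.32, and ranged from 0.58 for genes with 20 to 50 reads to 0.14 for genes with 300 or more.

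Called changes of the autosomal allele ratio with 5azadC were few. The mus share, the percentage of a gene's allelic reads that came from the mus copy, changed by a median of 3.05 percentage points between the 4 libraries with and the 4 without 5azadC. In 95% of members the change was at most 13.01 points. The mus:cas ratio was called changed, at an adjusted p under 0.05 in edgeR's quasi-likelihood test with VX680 as a covariate, in 24 of the 8949 members, 6 with a higher and 18 with a lower ratio. Over genes of all chromosomes 0.295% were called, 0.0873% higher and 0.207% lower. At an unadjusted p under 0.05 there were 554 members, or 6.19%. VX680 in the same fit changed the ratio of 35 members, 15 higher and 20 lower, beside 0.382% of all genes (0.164% higher, 0.218% lower), and 4 members were called for both drugs.

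The mus shares of the 4 libraries with 5azadC did not overlap those of the 4 without in 310 members, 157 higher and 153 lower, beside 3.44% of all genes (1.76% higher, 1.68% lower). Among the 24 called members 16 did not overlap. Of those 24, 10 were called whichever of the 8 libraries was left out. The count of lower ratios was 11 without untreated replicate 2 and 10 without 5azadC replicate 1. The count of higher ratios was 11 without VX680 replicate 1, 13 without VX680 replicate 2, 14 without 5azadC+VX680 replicate 1 and 10 without 5azadC+VX680 replicate 2. DESeq2 called 4 members (Ifit2, Tep1, Polr3b and Lgals3bp) and limma on the log2 ratio with a pseudocount of 0.5 called Ifit2, Tep1 and Polr3b. With a pseudocount of 2 limma called 7 higher and 17 lower ratios, of which 5 and 13 were also called by edgeR.

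**Figure D1:**
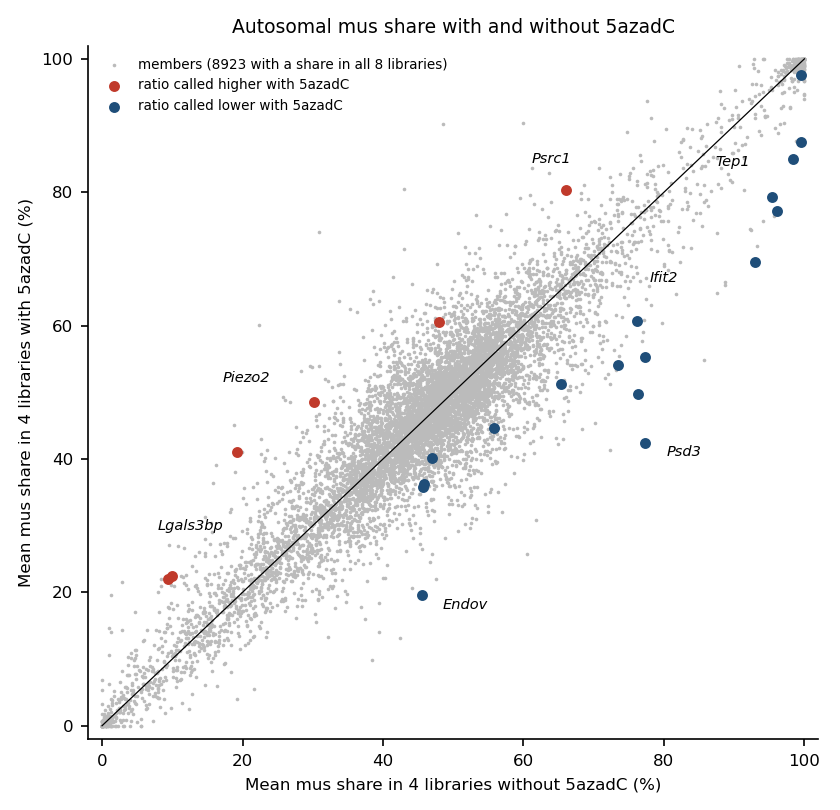
Mean mus share (%) of each member in the 4 libraries with 5azadC (vertical axis) against the 4 libraries without it (horizontal axis), with the 24 called members in red (higher ratio, 6) and blue (lower ratio, 18). Pgm5 is called but not drawn, since 1 library had no read of it. Most members lie along the line of equal shares, and the called genes range from near 100% to near 10% without 5azadC.

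The summed allelic reads of all members gave a mus share of 47.85 ± 0.776% with 5azadC and 47.29 ± 0.221% without (SD, n = 4 each), a difference of 0.553 points that did not pass a two-sided exact permutation test (p = 0.2, where 70 arrangements allow no p below 0.0286). 5azadC replicate 2 was the highest library at 48.83% and 5azadC replicate 1 the lowest at 46.94%, and without 5azadC replicate 1 the difference was 0.854 points with an exact permutation p of 0.0286. Without the 5 most-read genes, over all 8 libraries, it was 0.111 points (exact permutation p = 0.314). Giving each gene equal weight, the mean share was 45.99 ± 0.0939% with 5azadC and 46.04 ± 0.127% without (SD, n = 4 each, exact permutation p = 0.514). Allelic imbalance, the root mean square distance of genes' shares from 50% after removal of counting noise, was 18.49 ± 0.148 points with 5azadC and 18.41 ± 0.327 points without (exact permutation p = 0.771, n = 4 each).

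Chromosomes differed from each other in mus share far more than any of them differed with 5azadC. The median share of members was 63.3 ± 0.839% with 5azadC and 64.0 ± 0.893% without on chromosome 3 (SD, n = 4 each), and 60.4 ± 0.548% with and 59.6 ± 0.327% without on chromosome 2. Chromosome 7 was at 39.2 ± 0.555% with and 38.9 ± 0.604% without, and chromosome 10 at 40.2 ± 0.967% with and 40.3 ± 0.775% without. The other 15 autosomes had medians between 44.0 and 49.6% without 5azadC. The largest change of a chromosome's median was 1.15 points (chromosome 14, whose replicates had an SD of 1.24 with and 1.26 without). None of the 19 autosomes differed in summed share at an adjusted p under 0.05, a threshold out of reach unless most chromosomes were at the smallest possible p. At an unadjusted exact permutation p of 0.0286 (n = 4 each), the smallest possible, chromosome 6 was 1.92 points higher with 5azadC, or 1.12 points with equal weight per gene and an exact permutation p of 0.0857. Without its most-read gene it was 1.71 points higher (exact permutation p = 0.0286). Chromosome 18 was 1.33 points lower at the same exact permutation p of 0.0286, and 0.757 points lower without Lox, its most-read gene, again at an exact permutation p of 0.0286. With equal weight per gene it was 0.298 points lower (exact permutation p = 0.314).

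**Figure D2:**
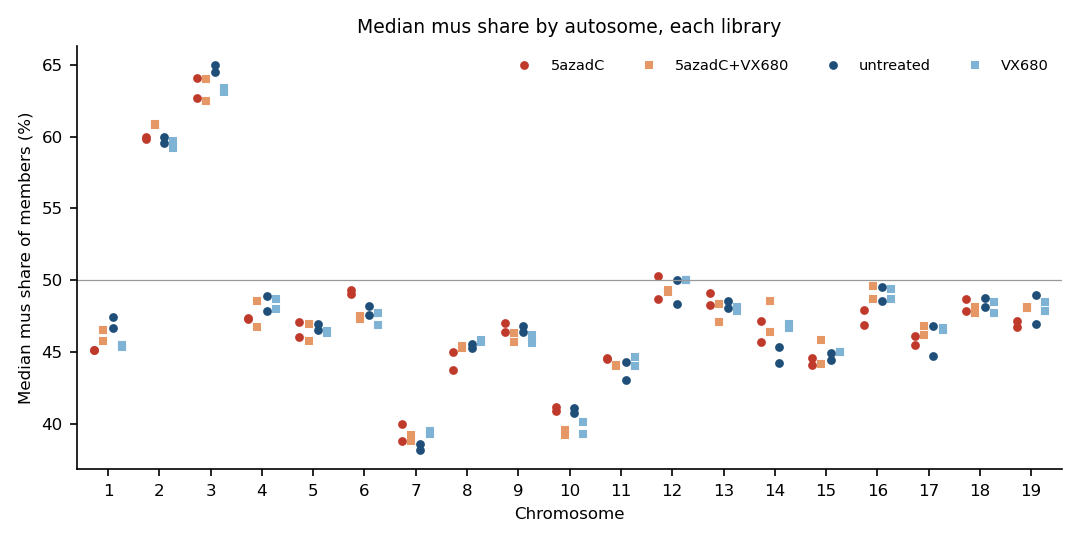
Median mus share (%) of the members on each autosome, 1 point per library, with 5azadC and 5azadC+VX680 drawn left of untreated and VX680, and the grey line at 50%. Chromosomes 2 and 3 lie near 60 to 64% and chromosomes 7 and 10 near 39 to 40% in all 4 groups.

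In 7 called members read mostly from the mus copy without 5azadC the cas level was higher with it. These 7 were by definition the called ones among the 237 members with a pooled mus share of 90% or more without 5azadC. All were called lower, beside 0.207% of all genes. The class was chosen on those libraries, and in it a share has more room to fall than to rise. The cas level rose at an adjusted p under 0.05 in all 7, while the mus level was called in 1 of them (Ankrd1). The cas levels come from the same reads as the ratio calls and are not separate support for them. Hist1h2bg, 1 of the 7, entered the class through VX680 replicate 1, with 409 mus and 36 cas reads, and was below 90% in the other 3 libraries without 5azadC. The median share of the class was 98.6% both with and without 5azadC, a value so near the limit of 100% that it shows little of a change in part of the class. With the class chosen on 1 replicate and the change taken in the other, the mean change was -0.42 points over 237 genes and -0.97 points over 249, with a median of 0 in both. Among the 330 members with 10% or less, the median was 3.55% with 5azadC and 3.17% without. Of these 1 gene, Lgals3bp, was called higher, beside 0.0873% of all genes.

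Ifit2, on chromosome 19, encodes an interferon-induced antiviral protein that binds RNA. The mus share of Ifit2 was 70.4 and 72.2% with 5azadC and 66.7 and 68.9% with 5azadC+VX680, against 97.4 and 98.3% in untreated cells and 88.9 and 87.5% with VX680. All 4 libraries with 5azadC lay below all 4 without. Its cas reads numbered 53, 25, 11 and 23 in the libraries with 5azadC (the 5azadC pair first), against 4 and 1 in untreated cells and 9 and 9 with VX680. The log2 change in mus:cas ratio was -2.74 ± 0.42 (SE; edgeR adjusted p = 0.000296). The cas level rose by 2.40 ± 0.52 on the log2 scale, while that of the mus copy had a log2 change of -0.24 ± 0.25 with an adjusted p of 0.64. Ifit2 was thus the one gene of the interferon-stimulated list below whose total expression was not called higher.

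Tep1, on chromosome 14, encodes a protein of telomerase and vault particles. Tep1 had mus shares of 89.0 and 87.7% with 5azadC and 83.3 and 79.8% with 5azadC+VX680, against 98.6 and 96.6% in untreated cells and 98.1 and 100% with VX680. There was no overlap between groups, with 9 to 17 cas reads in each library with 5azadC and at most 3 in each library without. The log2 ratio changed by -3.08 ± 0.52 (edgeR adjusted p = 0.00111), the cas level rose by 3.11 ± 0.60 on the log2 scale, and the mus level had a log2 change of 0.04 ± 0.20. Total Tep1 expression had a log2 change of 0.06 ± 0.16.

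Polr3b, on chromosome 10, encodes the second-largest subunit of RNA polymerase III. Its cas reads numbered 17 and 7 with 5azadC and 4 and 12 with 5azadC+VX680, against 0 and 0 in untreated cells and 0 and 1 with VX680. The corresponding mus reads were 72, 79, 56 and 63 with 5azadC, alone and then with VX680, against 99, 43, 97 and 55 without, untreated and then VX680. Every library with 5azadC thus had more cas reads than any without, and the mus shares did not overlap. The summed cas level was 46.4 times that without 5azadC, with an exact 95% interval of 7.87 to 1880. That interval covers counting error only, not the spread between libraries, and is wide because it rests on 1 cas read without 5azadC. The ratio was called lower at an edgeR adjusted p of 0.00127. Tep1 and Polr3b each overlap a noncoding gene on the opposite strand in GENCODE vM21, and whether strand was used in counting is not given in the sources used here.

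Ankrd1, on chromosome 19, encodes a nuclear and sarcomeric ankyrin-repeat protein that is a target of YAP signalling. In Ankrd1, the mus share was 70 and 90.4% with 5azadC and 76.9 and 79.7% with 5azadC+VX680, against 97.2 and 100% in untreated cells and 94.0 and 90.4% with VX680. The groups did not overlap, though 5azadC replicate 2 and VX680 replicate 2 lay side by side. Both copies rose, the cas copy by 2.91 ± 0.51 and the mus copy by 1.2 ± 0.27 on the log2 scale, and the log2 ratio changed by -1.94 ± 0.37 (edgeR adjusted p = 0.00454; 0.0877 without VX680 replicate 1).

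Snrnp200, on chromosome 2, encodes the helicase that unwinds U4 from U6 RNA in the spliceosome. It had 7 and 7 cas reads with 5azadC and 9 and 6 with 5azadC+VX680, against 0 and 1 in untreated cells and 1 and 3 with VX680, beside 235 to 389 mus reads in every library. Its mus share was 97.6 ± 0.610% with 5azadC and 99.5 ± 0.482% without (SD, n = 4 each), a small shift with no overlap between the groups. The edgeR adjusted p was 0.0216, and the call was lost in 6 of the 8 fits that left out a library: it was 0.247 and 0.0595 without untreated replicates 1 and 2, 0.0589 and 0.0666 without 5azadC replicates 1 and 2, 0.197 without VX680 replicate 1 and 0.0772 without 5azadC+VX680 replicate 1.

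The other 2 genes of this kind rested on uneven libraries. Gstp1, a glutathione S-transferase that conjugates electrophiles, had cas reads of 12 and 0 with 5azadC and 12 and 108 with 5azadC+VX680, against 1 and 0 in untreated cells and 4 and 11 with VX680. Its high value came from 5azadC+VX680 replicate 2, and the edgeR adjusted p of 0.0126 was 0.607 without that library, 0.108 without untreated replicate 1, 0.052 without 5azadC replicate 1 and 0.152 without VX680 replicate 1. Gstp1 has near-identical relatives in the mouse, so its allelic reads are uncertain. Hist1h2bg is described with the other histone genes below.

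**Figure D3:**
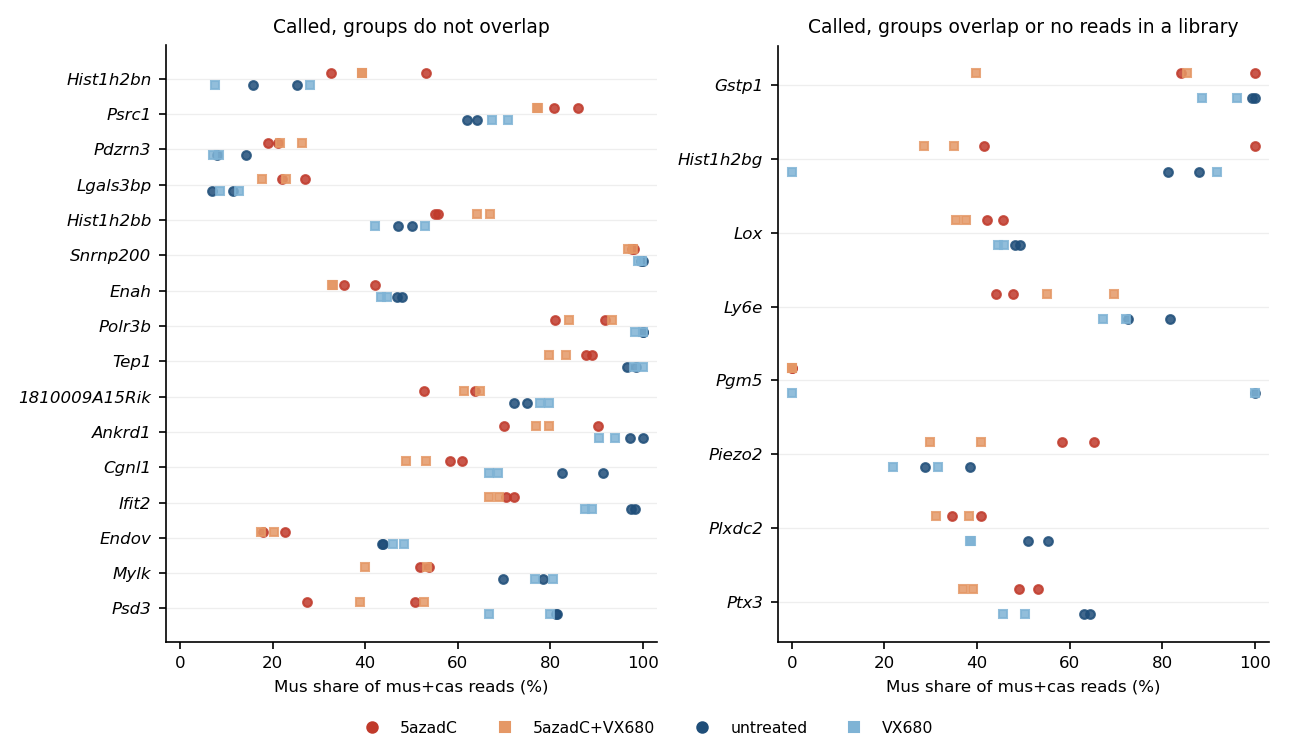
Mus share (%) of the 24 called members in each library, 1 point per library, with the libraries with 5azadC drawn above those without in each row; the left panel holds the 16 genes whose groups do not overlap, ordered by change. Ifit2, Tep1 and Polr3b moved down from near 100%, Lgals3bp and Pdzrn3 moved up from about 10%, and Endov moved down from about 45%.

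A further 4 genes used both copies without 5azadC and had more cas RNA with it. Psd3, on chromosome 8, encodes an exchange factor for the small GTPase ARF6. The mus share of Psd3 was 27.4 and 50.8% with 5azadC and 38.9 and 52.8% with 5azadC+VX680, against 81.2 and 81.4% in untreated cells and 66.7 and 80.0% with VX680. With no overlap and a mean change of -34.9 points it had the largest fall among called genes whose groups did not overlap, on 36 to 73 reads per library (log2 ratio -2.27 ± 0.45, edgeR adjusted p = 0.00746). The cas copy rose by 1.39 ± 0.34 on the log2 scale, and the mus copy had a log2 change of -0.86 ± 0.29 that was not called. The adjusted p was 0.0816 and 0.0798 without untreated replicates 1 and 2, and 0.138 without 5azadC replicate 1.

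Cgnl1, on chromosome 9, encodes paracingulin, a protein of cell junctions. Cgnl1 had mus shares of 60.9 and 58.3% with 5azadC and 48.8 and 53% with 5azadC+VX680, against 82.4 and 91.3% in untreated cells and 66.7 and 68.6% with VX680. There was no overlap between groups, and both VX680 pairs lay below their counterparts without VX680. The cas copy rose by 1.39 ± 0.27 on the log2 scale and the mus copy had a log2 change of 0.06 ± 0.16 (ratio, edgeR adjusted p = 0.0161; 0.0937 and 0.0798 without untreated replicates 1 and 2, 0.0589 without 5azadC replicate 1). The gene 1810009A15Rik, on chromosome 19, had a mus share of 60.6 ± 5.50% with 5azadC and 76.2 ± 3.27% without (SD, n = 4 each, no overlap), and its cas copy rose by 1.23 ± 0.18 on the log2 scale (ratio, edgeR adjusted p = 0.00746; 0.0699 without 5azadC replicate 1). It overlaps the protein-coding genes Lbhd1 and Gm49416 on the same strand, so its reads may be shared with theirs.

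Ly6e, on chromosome 15, encodes an interferon-inducible membrane-anchored protein. In Ly6e, the mus share was 44.1 and 47.8% with 5azadC and 69.5 and 55% with 5azadC+VX680, against 72.6 and 81.7% in untreated cells and 67.1 and 72.2% with VX680. The groups overlapped through 5azadC+VX680 replicate 1. Both copies rose, the cas copy by 2.53 ± 0.50 and the mus copy by 1.33 ± 0.30 on the log2 scale (ratio, edgeR adjusted p = 0.0161). That p was 0.282 and 0.223 without untreated replicates 1 and 2, 0.222 without 5azadC replicate 1 and 0.0976 without 5azadC+VX680 replicate 2.

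Other lower ratios came with less mus RNA. Endov, on chromosome 11, encodes endonuclease V, an enzyme that cuts RNA beside inosine. Its mus share was 17.9 and 22.6% with 5azadC and 20.3 and 17.5% with 5azadC+VX680, against 43.7 and 43.8% in untreated cells and 48.4 and 46.0% with VX680. No library of either set came within 20 points of the other set. The mus level fell by 1.47 ± 0.27 on the log2 scale, while the cas level had a log2 change of 0.30 ± 0.21 (ratio -1.77 ± 0.35, edgeR adjusted p = 0.00699). It was called whichever library was left out.

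Mylk, on chromosome 16, encodes myosin light chain kinase of smooth muscle and nonmuscle cells. The mus share of Mylk was 53.7 and 51.9% with 5azadC and 40 and 53.3% with 5azadC+VX680, against 69.8 and 78.3% in untreated cells and 76.7 and 80.5% with VX680. The groups did not overlap, and the mus level fell by 1.22 ± 0.20 on the log2 scale with a cas log2 change of 0.31 ± 0.28 (ratio, edgeR adjusted p = 0.015; 0.133 without untreated replicate 2 and 0.0589 without 5azadC replicate 1). Plxdc2, a plexin-domain membrane protein gene on chromosome 2, had a mus share of 34.6 and 40.9% with 5azadC and 31.0 and 38.3% with 5azadC+VX680, against 55.3 and 50.9% in untreated cells and 38.7 and 38.5% with VX680. Its groups overlapped through the VX680 libraries, and VX680 was itself called to lower its ratio (adjusted p = 0.0426). Its edgeR adjusted p for 5azadC of 0.0179 was 0.352 and 0.099 without untreated replicates 1 and 2, and 0.284 without 5azadC replicate 1.

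A further 3 lower ratios were in genes read more deeply than most members. Lox, on chromosome 18, encodes lysyl oxidase, which cross-links collagen and elastin. Lox had mus shares of 42.1 and 45.6% with 5azadC and 37.6 and 35.4% with 5azadC+VX680, against 49.2 and 48.2% in untreated cells and 45.8 and 44.6% with VX680. The groups overlapped in 5azadC replicate 2, yet within each background the libraries with 5azadC were lower. Both copies fell, the mus copy by 1.66 ± 0.14 and the cas copy by 1.26 ± 0.14 on the log2 scale, and the log2 ratio changed by -0.40 ± 0.06 (edgeR adjusted p = 0.000234). VX680 also lowered the Lox ratio, by a log2 change of -0.32 at an adjusted p of 0.0048. Lox overlaps an antisense gene in the annotation.

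Ptx3, on chromosome 3, encodes a secreted pattern recognition molecule of the pentraxin family and lies opposite the gene Veph1. In Ptx3, the mus share was 49.1 and 53.2% with 5azadC and 37.1 and 39.2% with 5azadC+VX680, against 63.1 and 64.5% in untreated cells and 50.2 and 45.5% with VX680. Each pair with 5azadC lay below its counterpart, although the sets of 4 overlapped because VX680 lowered the ratio too (adjusted p = 2.35e-05 for VX680, 0.000984 for 5azadC, edgeR). Enah, a regulator of actin filament growth on chromosome 1, had a mus share of 35.9 ± 4.38% with 5azadC and 45.7 ± 2.10% without (SD, n = 4 each), with no overlap. Its edgeR adjusted p of 0.0334 was between 0.0816 and 0.266 in 7 of the 8 fits that left out a library (all but 5azadC replicate 2). Neither copy of Ptx3 or of Enah was called on its own level.

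Higher mus:cas ratios were fewer. Lgals3bp, on chromosome 11, encodes a secreted galectin-binding glycoprotein and belongs to the interferon-stimulated list. Its mus share was 27 and 22.1% with 5azadC and 23 and 17.7% with 5azadC+VX680, against 6.91 and 11.5% in untreated cells and 8.56 and 12.8% with VX680. All libraries with 5azadC lay above all without. Both copies rose, the mus copy by 2.72 ± 0.33 and the cas copy by 1.18 ± 0.20 on the log2 scale, and the log2 ratio rose by 1.5 ± 0.21 (edgeR adjusted p = 7.64e-05; 0.0589 with limma and a pseudocount of 0.5).

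Psrc1, on chromosome 3, encodes a microtubule-associated spindle protein and belongs to the p53 target list. The mus share of Psrc1 was 80.8 and 86.0% with 5azadC and 77.3 and 77.1% with 5azadC+VX680, against 64.1 and 62.1% in untreated cells and 67.4 and 70.8% with VX680. There was no overlap between groups. The mus copy rose by 0.62 ± 0.18 on the log2 scale and the cas copy had a log2 change of -0.46 ± 0.18 with an adjusted p of 0.12 (ratio 1.07 ± 0.19, edgeR adjusted p = 0.00159).

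In the remaining higher ratios outside the histone genes the cas copy was called lower, and the mus copy was not called. The mus copy of Pdzrn3 had a log2 change of 0.73 ± 0.27 (edgeR adjusted p = 0.121). That of Piezo2 had a log2 change of 0.41 ± 0.24 (edgeR adjusted p = 0.35). Pdzrn3, a ubiquitin ligase gene on chromosome 6, had a mus share of 19 and 21.2% with 5azadC and 26.3 and 21.7% with 5azadC+VX680, against 14.2 and 8.07% in untreated cells and 7.08 and 8.33% with VX680. The groups did not overlap, and the cas copy fell by 0.66 ± 0.17 on the log2 scale (ratio, edgeR adjusted p = 0.0156; 0.124 without untreated replicate 2, 0.0731 without VX680 replicate 1 and 0.0571 without 5azadC+VX680 replicate 2). Piezo2, a mechanosensitive channel gene on chromosome 18, had 65.2 and 58.4% with 5azadC and 40.9 and 29.9% with 5azadC+VX680, against 28.7 and 38.5% in untreated cells and 31.6 and 21.9% with VX680. The groups overlapped through 5azadC+VX680 replicate 2. Its edgeR adjusted p of 0.0392 was 0.532 and 0.117 without untreated replicates 1 and 2, and 0.529 and 0.0982 without 5azadC replicates 1 and 2.

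Pgm5, on chromosome 19, encodes a muscle phosphoglucomutase relative found at cell adhesions, and was the gene whose allelic reads came almost wholly with 5azadC. It had 78 and 36 cas reads with 5azadC and 30 and 40 with 5azadC+VX680, against 0 and 0 in untreated cells and 4 and 0 with VX680. No mus read was seen in 184 reads with 5azadC, which allows a mus share of up to 1.63%, against 4 of 8 reads without. Pgm5 thus met the mean of 20 reads only through the libraries with 5azadC, as did 106 members in all, of which it alone was called. In GENCODE vM21 Pgm5 overlaps a processed pseudogene on the same strand and another pseudogene on the opposite one. In the same annotation Enah, Pdzrn3 and Piezo2 overlap unclassified transcripts on their own strand, and Pdzrn3, Piezo2, Psd3 and Mylk overlap genes on the opposite strand, so that reads of these genes too may be shared. Leaving Pgm5 out gives 23 calls, 17 of them lower. The ratio call (edgeR adjusted p = 0.016) therefore compares a cas-only signal with 8 reads, and the adjusted p was 0.9 without untreated replicate 1 and 0.0923 without 5azadC replicate 1.

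Taking the alleles apart, 264 members had more and 326 less mus RNA with 5azadC, beside 2.9% and 3.56% of all genes (6.46% together). For the cas copy 434 had more and 495 less RNA, beside 4.79% and 5.58% of all genes (10.4% together). In 172 members both copies rose, in 206 both fell, and in 0 did one rise while the other fell at an adjusted p under 0.05 in edgeR. Among the 18 called lower ratios, the cas copy alone rose in 10 (9 without Pgm5), both rose in 2, the mus copy alone fell in 3, both fell in 1, and neither was called in 2. Among the 6 higher ratios, the cas copy alone fell in 3, the mus copy alone rose in 1, both rose in 1, and neither was called in 1. Alone means here that the other copy was not called, not that it was unchanged. The mus copy had a log2 change of -0.86 ± 0.29 in Psd3 and of 0.73 ± 0.27 in Pdzrn3, neither of them called. These level counts drop with fewer libraries: mus rises numbered 77 and 91 without untreated replicates 1 and 2, and 124 and 133 without 5azadC replicates 1 and 2. In the same order of libraries mus falls numbered 154, 149, 174 and 208, cas rises 121, 147, 199 and 248, and cas falls 206, 222, 247 and 313.

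**Figure D4:**
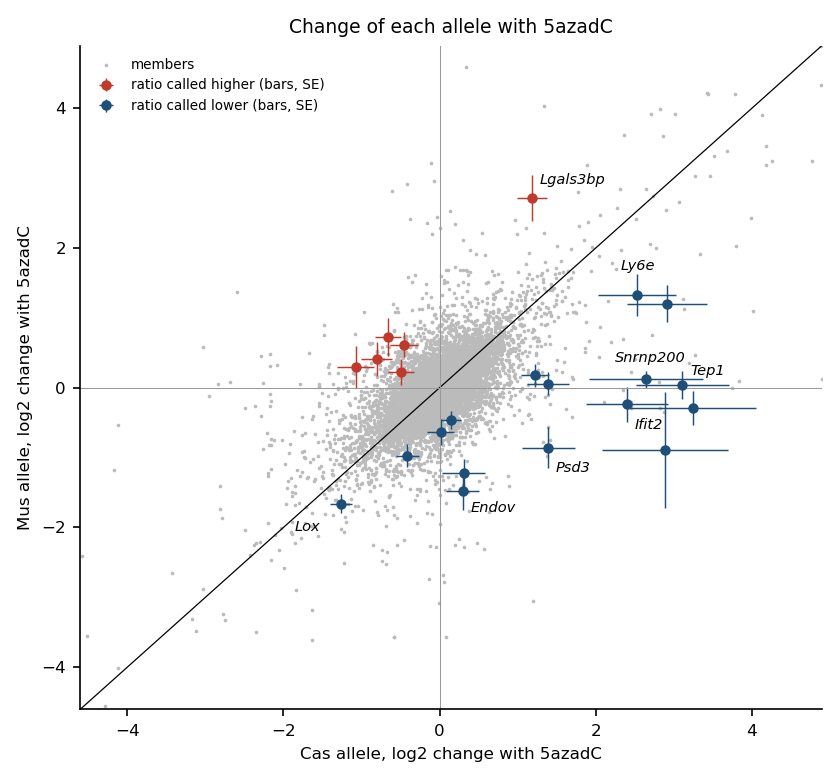
Log2 change with 5azadC of the mus copy (vertical axis) against that of the cas copy (horizontal axis) for all members (grey) and for called members (red, higher ratio; blue, lower ratio; bars, SE), with the line of equal change; points beyond the axes, and Polr3b and Pgm5 with their few reads in 1 group, are not drawn. Blue points right of the vertical line and near the horizontal one, such as Tep1 and Snrnp200, had more cas RNA at about the same mus level.

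Total expression was called changed in many more genes than the ratio was. The tests differ in power, since totals use all reads and the ratio only those assigned to an allele. In simulated data 88% of log2 changes of 1 were called in total expression, at an assumed spread between libraries. For the ratio it was 52%, in genes with neither copy near silent. With 5azadC 1084 members were higher and 1161 lower in total, beside 11.1% and 11.4% of all genes tested (22.5% together). Of the 153 members whose total rose at least 2-fold, 4 had a called ratio (Lgals3bp, Ankrd1, Ly6e and Pgm5), and of the 164 that fell at least 2-fold 1 had (Lox); Pgm5 met the read minimum only where its total was high. These are 2.61% and 0.61% of their classes, beside 0.295% over all genes. Among the 6703 members with no call in total expression, 13 had a called ratio, or 0.194%, which is near that background. The totals called higher numbered 331 and 324 without untreated replicates 1 and 2, and 667 and 544 without 5azadC replicates 1 and 2. Those called lower numbered 619 and 555 without untreated replicates 1 and 2, and 687 without 5azadC replicate 2.

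In the 6 gene lists given next, called ratios numbered 0 to 2 a list. These counts stand beside 0.295% called over all genes and 6.19% of members at an unadjusted p under 0.05. Counts in total expression stand beside 11.1% higher and 11.4% lower of all genes tested. Counts of both copies stand beside 172 members with both higher and 206 with both lower, of 8949. In simulated data 10% of log2 ratio changes of 0.5 and 52% of changes of 1 were called, in genes with neither copy near silent. Of 37 interferon-stimulated members, 36 were higher in total with a median log2 change of 2.54, against 0.01 over all members, and both copies rose in 29. The median log2 change was 2.57 for their mus and 2.71 for their cas copies, and the ratio was called in 2 (Lgals3bp higher, Ifit2 lower). Isg15, a ubiquitin-like modifier, rose by 3.91 ± 0.43 (mus) and 4.13 ± 0.50 (cas) on the log2 scale. Ifit1, a neighbour of Ifit2 in the same antiviral family, had a mus share of 41.4 ± 4.41% with 5azadC and 42.8 ± 6.36% without (SD, n = 4 each). Of 8 MHC class I members, 7 were higher in total and 0 had a called ratio, nor had any an unadjusted p under 0.05. H2-D1, an antigen-presenting heavy chain, rose by 1.66 ± 0.24 (mus) and 1.58 ± 0.29 (cas) on the log2 scale.

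Of 61 fibroblast matrix members, 41 were lower in total and both copies fell in 31, the latter beside 206 of all 8949 members. The ratio was called in 1 (Lox) and had an unadjusted p under 0.05 in 13. Counts in total expression in this paragraph stand beside 11.1% higher and 11.4% lower of all genes tested. Of 29 p53 target members, 18 were higher in total and 1, Psrc1, had a called ratio, while 5 had an unadjusted p under 0.05. Psrc1 had a higher ratio, but the median log2 ratio change of the list was -0.129. The median mus share of the list was 40.9% with 5azadC and 47.6% without. Cdkn1a, the cyclin-dependent kinase inhibitor p21, rose by 1.42 ± 0.36 (mus) and 1.46 ± 0.37 (cas) on the log2 scale. All 29 clustered protocadherin members were lower in total and 0 had a called ratio, with a median log2 ratio change of -0.02. Of 187 members named Zfp, many of them KRAB zinc finger repressors, 42 were lower in total and 6 higher, and 0 had a called ratio. Neighbouring protocadherin and histone genes share sequence or exons, so that reads may be split between them or counted for several of them. The 29 protocadherin members may thus not be separate observations.

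Among 13 smooth muscle members Mylk alone had a called ratio, and among 8 glutathione S-transferases Gstp1 alone. None was called among 57 cytosolic ribosomal proteins, 58 respiratory chain genes, 42 mitosis genes, 38 replication genes, 20 cholesterol synthesis genes, 16 genes of the DNA methylation machinery, 12 Hox genes and 7 chemokines and cytokines, although 7, 3, 1, 0, 1, 1, 1 and 5 of them in that order had an unadjusted p under 0.05 in edgeR. With 0.295% of all genes called, a count of 0 calls in lists of this size is near the background. The unadjusted counts stand beside 6.19% of members, and the 5 of 7 chemokines and cytokines were well above that share. The median log2 ratio change of that list was -0.73, against -0.01 over all members. Its median mus share was 44.3% with 5azadC and 54.6% without, and the cause was not tested. No germline gene of the list reached the read minimum. For the drug targets, Dnmt1, the maintenance methyltransferase, had a mus share of 49.5 ± 0.860% with 5azadC and 46.0 ± 1.40% without (SD, n = 4 each), with no overlap but an edgeR adjusted p of 0.767. Aurka was at 26.3 ± 5.95% with and 26.4 ± 3.79% without, and Aurkb at 30.1 ± 1.10% with and 32.9 ± 2.89% without, neither of them called.

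Imprinted genes are the class most tied to allele-specific methylation. Of 18 imprinted members 0 had a called ratio, beside 0.295% of all genes, a share at which 0 of 18 is near the background. In edgeR Dlk1 of the paternally expressed list had an unadjusted p of 0.00693 and Igf2r of the maternally expressed list one of 0.00245. In 9 of them, 90% or more of all allelic reads came from 1 copy. The 7 on the mus side, Peg10, Sgce, Plagl1, Peg12, Peg13, Kcnq1ot1 and Slc38a4, are known as paternally expressed, and the 2 on the cas side, Grb10 and Igf2r, as maternally expressed. The class was taken over all 8 libraries, so that a gene whose silent copy gained reads with 5azadC could drop out of it, as Dlk1 did with a pooled mus share of 71.6% with 5azadC and 92.4% without. The share of reads from their silent copy was 1.49 and 1.9% with 5azadC and 2.49 and 2.28% with 5azadC+VX680, against 1.26 and 1.72% in untreated cells and 1.07 and 1.52% with VX680. In reads this was 108 of 5632 with 5azadC and 96 of 6994 without, and the groups overlapped, though not among the libraries with VX680. Chosen on the libraries without 5azadC alone, the class held 10 genes, Dlk1 added, and the share from the silent copy was 2.97 and 2.33% with 5azadC and 3.09 and 2.52% with 5azadC+VX680, against 1.36 and 1.71% in untreated cells and 1.35 and 1.57% with VX680. These groups did not overlap, but that choice favours low values in the libraries it used, and 52 of the 160 silent-copy reads with 5azadC and 9 of the 105 without were those of Dlk1.

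Sgce, which encodes epsilon-sarcoglycan, had 0 cas reads among 261 reads with 5azadC and 0 among 511 without, which allows a cas share of up to 1.15% and 0.587%. Plagl1, a zinc finger transcription factor, had 0 cas reads of 178 with 5azadC and of 343 without, allowing up to 1.69% and 0.875%. Kcnq1ot1, the noncoding RNA that silences its neighbours on the paternal chromosome, had 14 cas reads of 792 with 5azadC and 15 of 1043 without. Igf2r, the receptor that takes up IGF2 for degradation, had 36 mus reads of 1068 with 5azadC and 18 of 1440 without, the largest gain of the class in number of silent-copy reads, with its libraries overlapping over both backgrounds. With VX680 in both groups its mus reads were 12 and 11 with 5azadC, against 2 and 4 without (edgeR unadjusted p = 0.000799, adjusted p = 0.222). As a share the silent copy of Peg13, a noncoding RNA, changed most: it had 10 cas reads of 214 with 5azadC and 7 of 403 without, with 7 of the 10 in 5azadC replicate 2 and none in 2 libraries with 5azadC, and its mean mus share changed by -2.67 points with its libraries overlapping. Grb10, a growth-inhibiting adaptor of receptor kinases, had 6 mus reads of 668 with 5azadC and 10 of 1205 without.

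Dlk1, a Notch-family ligand-like protein gene on chromosome 12 that fell short of the 90% limit over all libraries, had a mus share of 64.6 and 82.1% with 5azadC and 69.6 and 86.4% with 5azadC+VX680, against 89.7 and 100% in untreated cells and 90.2 and 96.6% with VX680. There was no overlap between groups, with 52 cas reads of 183 with 5azadC and 9 of 119 without, but the edgeR adjusted p was 0.481. The other 8 imprinted members, among them Ube3a, Impact, H13 and Cd81, used both copies in these fibroblasts in every group.

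**Figure D5:**
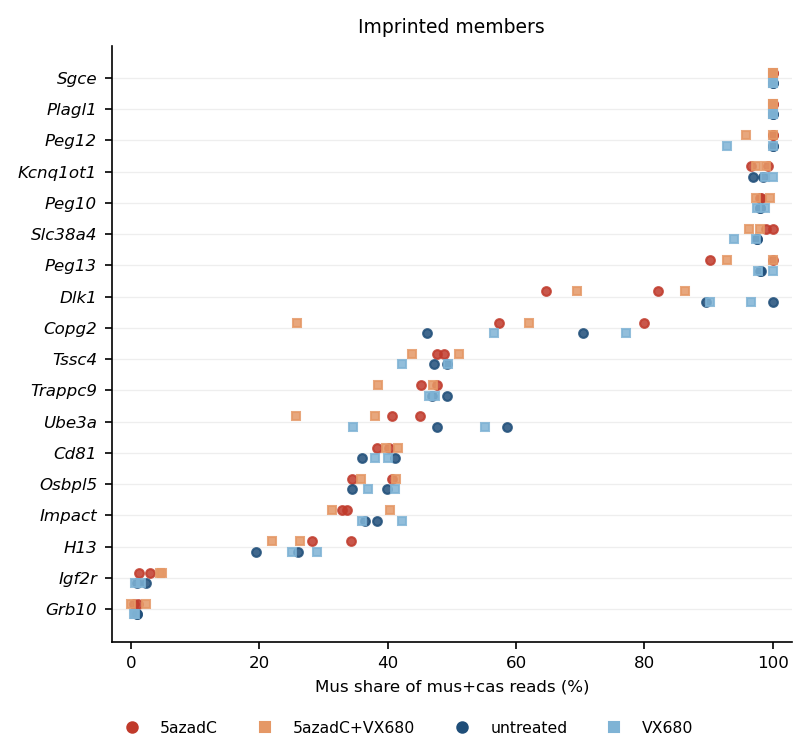
Mus share (%) of the 18 imprinted members in each library, 1 point per library, with the libraries with 5azadC drawn above those without in each row. The 9 genes of the one-copy class lie near the edges in all 4 groups, and Dlk1 shows the libraries with 5azadC left of the others.

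The called histone genes lie in the cluster on chromosome 13, and Hist1h2bg in particular varied widely between replicates. Hist1h2bg, an H2B gene, had mus and cas reads of 44 and 62 and of 5 and 0 with 5azadC, and of 109 and 202 and of 10 and 25 with 5azadC+VX680. Without 5azadC it had 51 and 7 and then 13 and 3 in untreated cells, and 409 and 36 and then 0 and 1 with VX680. Its shares ran from 0 to 100% while its total expression had a log2 change of 0.04 ± 0.11, and the call (edgeR adjusted p = 1.49e-06) was lost without VX680 replicate 1 (0.257). In 4 of 13 Hist1h2b members, or 30.8%, the mus share of replicates of 1 group differed by 30 points or more where both had at least 20 reads, against 468 of 8899 members or 5.26%. The median of a gene's largest such difference was 13.4 points for Hist1h2b members and 11.6 points over all members. For all histone members it was lower, at 5.88 points.

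Hist1h2bn had a mus share of 53.1 and 32.6% with 5azadC and 39.3 and 39.3% with 5azadC+VX680, against 25.2 and 15.8% in untreated cells and 28.1 and 7.53% with VX680. Hist1h2bb had 60.5 ± 5.95% with 5azadC and 48.0 ± 4.68% without (SD, n = 4 each). Neither overlapped between groups, and both lost their call when edgeR's prior was estimated robustly (adjusted p of 0.764 for Hist1h2bn and 0.0853 for Hist1h2bb). H2B genes are nearly identical in sequence, so the assignment of their reads to a gene and an allele is uncertain. The ratio was called in 3 of 64 histone members, 2 higher and 1 lower, with 13 at an unadjusted p under 0.05, beside 0.295% of all genes called and 6.19% of members at an unadjusted p under 0.05.

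The effect of 5azadC on allele ratios was also taken in each background with separate libraries. 5azadC against untreated called 25 members, 13 higher and 12 lower, beside 0.317% of all genes (0.175% higher, 0.142% lower), and 5azadC+VX680 against VX680 called 7, 2 higher and 5 lower, beside 0.0873% (0.0328% higher, 0.0546% lower). Of the 25, 15 had the same sign in the other contrast and 7 of these an unadjusted p under 0.05 there. Only 2 genes, Hist1h2bf and Hist1h2bh, were called in both, and with opposite signs. Over all members the sign was the same in 51.2%, and the Spearman correlation across genes, which are not independent replicates, was 0.034 over the 8949 members. All 24 members called over both backgrounds had the same sign in each, which their choice from the sum of both contrasts favours. The 25 became 11 and 13 without untreated replicates 1 and 2 and 13 without 5azadC replicate 1. The 7 became 16 and 15 without 5azadC replicates 1 and 2, and 11 without 5azadC+VX680 replicate 2.

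The difference between the backgrounds was called in 4 members, Hist1h2bh, Hist1h2bf, Spp1 and Hmgn1, beside 0.0437% of all genes (0.0109% higher, 0.0328% lower), with 495 at an unadjusted p under 0.05. Spp1, on chromosome 5, encodes osteopontin, a secreted matrix phosphoprotein. Spp1 had mus shares of 40.5 and 39.1% with 5azadC against 25 and 15% in untreated cells, and 40.5 and 43.5% with 5azadC+VX680 against 47.9 and 49.1% with VX680. The untreated pair, with 24 mus and 72 cas reads and with 6 and 34, stood apart from the other libraries. The edgeR adjusted p of the difference, 0.0217, was 0.0881 and 0.346 without untreated replicates 1 and 2, 0.0804 without 5azadC replicate 1 and 0.0542 without 5azadC+VX680 replicate 1. The count of 4 became 2 without untreated replicate 1 and 9 without VX680 replicate 2.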

How the data were processed

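RNA of 8 libraries, 2 per group, was sequenced from strand-specific libraries, per the labels' protocols. The authors deposited raw counts of reads per gene, in a table of all reads and in a table of mus and cas reads. The submitters' processing notes name build mm9, TopHat2 2.0.10, HOMER 4.8 and edgeR; how reads were assigned to an allele and whether counting used strand are not given in the sources used here, and either could favour one allele at some genes. The authors' normalised values, their tables of tested genes and the 8 total columns of the allelic table were not used here.

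The allele ratio was tested with edgeR 4.0.16 (R 4.3.3), quasi-likelihood, on the 16 mus and cas columns, with 1 term per library, a mus term, mus by 5azadC and mus by VX680; the library's mus+cas total was the offset of both alleles. P-values were adjusted by Benjamini-Hochberg over the 9160 genes with a mean of 20 or more allelic reads per library, and called at 0.05. Allele levels and total expression were fitted on counts scaled by TMM factors of the total counts, with VX680 as covariate. The SE of a log2 change is its absolute value divided by the square root of the test's F statistic, not an SE taken from the fit. CPM are counts of all reads scaled to a fixed library total. DESeq2 1.42.0 and limma 3.58.1 were alternatives. Shares are percentages computed from the counts; intervals and limits from a count of 0 (3 reads of the total) are at 95% confidence and cover counting error only, since reads without molecular identifiers are not independent molecules. On simulated counts for the ratio comparison over 9160 genes, 52% of log2 changes of 1 and 10% of changes of 0.5 were called. There were 6 false calls among 8960 unchanged genes. These rates limit what was detectable. Changes were placed only in genes with neither copy near silent, so the rates do not cover genes with a near-silent copy, such as the one-copy imprinted genes.

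Genes were named by rule: called members without overlap (the 8 largest rises and falls in share and the 4 smallest p in each direction), up to 3 called members per gene list, called imprinted genes, and the drug targets Dnmt1, Aurka and Aurkb. The other called genes, the interaction genes and the list and imprinted genes given with values were named after their values were seen. The members and lists were chosen with earlier results of these data known. Overlapping genes were looked up by name in GENCODE vM21, which is another build, so no coordinates are given.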

Additional observations from a re-analysis of the deposited data

Results flagged for a closer look

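The effect of 5azadC on the mus:cas ratio differed between cells with and without VX680 in 4 members, by the interaction term of the edgeR fit. For Hist1h2bh the adjusted p was 2.33e-14. Its mus and cas reads were 25 and 2 and then 460 and 0 with 5azadC, against 202 and 587 and then 139 and 273 in untreated cells. With 5azadC+VX680 they were 2 and 93 and then 4 and 2, against 115 and 1 and then 13 and 0 with VX680. For Hist1h2bf the adjusted p was 7.08e-08, and 0.924 without 5azadC+VX680 replicate 1. Its mus share was 89.6 and 98.2% with 5azadC against 26.8 and 21.8% in untreated cells, and 47.4 and 99.2% with 5azadC+VX680 against 98.8 and 97.2% with VX680. For Spp1 the adjusted p was 0.0217, on the values given in the report. For Hmgn1, which encodes a nucleosome-binding protein, the adjusted p was 0.0217. Its mus share was 18.2 and 14.0% with 5azadC against 32.9 and 14.9% in untreated cells, and 31.1 and 35.1% with 5azadC+VX680 against 18.9 and 17.0% with VX680. The Hmgn1 p was 0.537 without untreated replicate 1, 0.0793 without 5azadC replicate 2 and 0.0903 without 5azadC+VX680 replicate 2.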

How the results depend on the processing

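No called result changed its sign. Differences without a call did: the pooled share, 0.553 points, was -0.052 as the mean and -0.03 as the median of the genes' shares, and the imbalance, 0.079, was -0.008 at 50 or more reads. With equal weight per gene chromosomes 2, 3, 5, 8 and 12 were at -0.064, -0.352, -0.443, -0.032 and -0.239 points and chromosome 11 at 0.338. Leaving out 1 library gave -0.144 to 0.017 on chromosome 1, -0.014 to 0.297 on 3, -0.278 to 0.179 on 4 and -0.137 to 0.303 on 12. Higher and lower ratios numbered 26 and 28 with no filter beyond 1 read, 1 and 3 with DESeq2, and 0 and 3 with limma and a pseudocount of 0.5. Ifit2, Tep1 and Polr3b were called in all 19 alternatives. Leaving out 1 library at a time gave 5 to 14 higher and 10 to 22 lower ratios, 11 to 34 calls for 5azadC against untreated, 7 to 16 for 5azadC+VX680 against VX680 and 2 to 9 for their difference. It gave 77 to 305 mus rises, 149 to 346 mus falls, 121 to 448 cas rises and 206 to 453 cas falls. Totals ranged from 324 to 1049 higher and from 555 to 1048 lower. The pooled share differed by 0.225 to 0.854 points and the imbalance by 0.009 to 0.241 points. Chromosomes at an unadjusted p under 0.05 numbered 1 to 3, and 0 with equal weight per gene. The cause of these shifts was not tested. Leaving out a library also leaves its group with 1 sample, assumed to vary like the others. Replicate numbers showed no pairing of the libraries in the correlations of their deviations, -0.048 to 0.022 over 4728 genes. The level and total counts did drop with the replicate block. Mus rises then numbered 171 in place of 264, and totals called higher 758 in place of 1084. Piezo2 lost its call with the replicate block (adjusted p = 0.0627). Robust estimation of edgeR's prior, the shares without the most-read genes, the counts without Pgm5 and the imprinted class chosen without 5azadC were added after seeing the data. Depth also limits the ratio: genes with 20 to 50 reads had a median SE of 0.58 and gave 1 of the 24 calls, from 2116 genes.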

Other observations

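Called members were spread over the autosomes, with 5 of 338 members on chromosome 19 (Ifit2, Ankrd1, 1810009A15Rik, Gstp1 and Pgm5) and 3 of 368 on chromosome 13 (Hist1h2bg, Hist1h2bn and Hist1h2bb), and none on chromosomes 4, 5, 7, 12 and 17. Over all genes 0.295% were called, and no test of this spread was made. Of the 24 called members 17 were nearer to 50% with 5azadC, beside 47.6% of all members. These figures are not alike, since the 24 were chosen for a change in ratio. Of the 24, 7 started at a pooled mus share of 90% or more, with more room to fall than to rise. No conclusion is drawn from this count.

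The 2 most-read members were noncoding RNAs. Rmrp, the RNA of RNase MRP, had a mean mus share of 53.1% with 5azadC and 52.9% without. Rpph1, the RNA of RNase P, had 97.0% with and 97.1% without, on 31442 to 74006 allelic reads per library.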
